A study of Mus musculus with 14 samples.

Results

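The integrated stress response and amino-acid supply genes described here are 40 mouse genes, taken by symbol from a fixed list of textbook members of the pathway. That list was chosen with earlier results of these data known. All 40 were present among the 24345 gene symbols of the RNA-seq tables and the 24394 of the RNA immunoprecipitation (RIP) tables. The study sequenced 14 libraries in 7 groups of 2. Dppa5a_KD libraries came from embryonic stem cells with Dppa5a, an RNA-binding protein of pluripotent cells, knocked down. KD_control libraries came from stem cells labelled wild type. The mESC libraries came from stem cells also labelled wild type, and the MEF libraries from primary wild-type embryonic fibroblasts. All 4 of these groups were untreated. The 3 RIP groups all came from stem cells with 3Flag-Dppa5a overexpression. For HU_Flag_RIP the cells had been given HU, a name the labels do not spell out, before RNA was pulled down with an antibody to Flag. Flag_RIP used the same antibody in untreated cells, and IgG_RIP used control IgG in untreated cells. No IgG library from HU-treated cells was analysed here. The stem cell lines are labelled only as home made, and the labels give neither the knockdown method nor the nature of its control. Stem cells were kept on inactivated feeder fibroblasts in medium with LIF, then moved to gelatin before harvest, whereas fibroblasts grew in serum. Separate cultures are not stated for the replicates. The p-values therefore reflect the spread of the deposited libraries alone, and that spread may be technical.

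The integrated stress response begins with kinases that phosphorylate the translation factor eIF2. General translation then slows, while the mRNA of the transcription factor Atf4 is translated more. ATF4 protein pairs with C/EBP factors and turns on genes that make amino acids, carry them into the cell and load them onto tRNA. Since ATF4 is set largely by translation, its mRNA level is not a measure of its protein. Mouse embryonic stem cells are known for a heavy use of threonine and folate one-carbon metabolism.

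The element through which ATF4 and C/EBP factors act, the C/EBP-ATF response element (CARE), is shown for 10 of the 13 genes in whose promoter window it was found, so that its letters can be compared. It was searched as TGATGNAA on both strands of RefSeq promoter windows, from 250 bases before to 50 bases after each gene start (GRCm38.p6). Windows were found for 32 of the 40 genes. The motif was present in 13 of the 32 (40.6%), against 4.51% of 27025 genes with such a window, and in 3.97% of all 32851 windows. Since the genes were listed as textbook members of this pathway, the larger share among them is no independent result. Each 40-base stretch below is written on the strand on which the motif, in capitals, reads TGATGNAA. 
Nupr1, chr7:126625557-126625596, plus strand: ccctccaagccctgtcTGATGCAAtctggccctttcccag
Chac1, chr2:119351033-119351072, minus strand: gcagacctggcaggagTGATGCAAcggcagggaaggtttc
Pck2, chr14:55540147-55540186, minus strand: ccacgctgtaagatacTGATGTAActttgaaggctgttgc
Trib3, chr2:152344023-152344062, plus strand: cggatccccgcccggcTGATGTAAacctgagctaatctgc
Asns, chr6:7693209-7693248, minus strand: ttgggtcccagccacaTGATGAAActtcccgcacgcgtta
Fgf21, chr7:45615606-45615645, plus strand: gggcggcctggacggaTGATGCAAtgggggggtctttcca
Vldlr, chr19:27216804-27216843, minus strand: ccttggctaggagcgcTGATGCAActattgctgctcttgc
Gars, chr6:55037955-55037994, minus strand: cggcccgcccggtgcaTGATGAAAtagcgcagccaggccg
Tars, chr15:11399650-11399689, plus strand: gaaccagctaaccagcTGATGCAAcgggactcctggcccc
Slc7a11, the cystine transporter, was the only gene besides Aars, the alanine synthetase, with 2 matches. Its whole window is given on the strand of the gene, with both matches in capitals and the second read on the opposite strand. 
Slc7a11, chr3:50443564-50443863, minus strand: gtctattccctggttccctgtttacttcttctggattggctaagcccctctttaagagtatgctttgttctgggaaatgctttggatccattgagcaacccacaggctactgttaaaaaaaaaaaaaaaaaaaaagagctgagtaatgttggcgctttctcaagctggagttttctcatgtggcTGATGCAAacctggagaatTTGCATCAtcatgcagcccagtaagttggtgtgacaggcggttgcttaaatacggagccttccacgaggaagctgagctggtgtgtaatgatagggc
Several genes with large differences in level below, namely Ddit3, Ddit4, Stc2, Phgdh, Cebpb and Atf5, have a window without the motif, and Cth and Slc7a3 were without a window. The other holders were Yars and Iars, the tyrosine and isoleucine synthetases. By role, the motif was found in 5 of 8 synthetases with a window, 2 of 7 regulators, 1 of 3 feedback genes, 0 of 5 serine and one-carbon genes, 2 of 4 other enzymes of amino-acid metabolism, 1 of 2 transporters and 2 of 3 secreted or receptor genes. Outside the 40 it was found in 3 of 8 further stress targets with a window, 2 of 8 further enzymes and 1 of 6 further transporters. It was in 1 of 9 genes for eIF2 and related factors and 0 of 5 eIF2 kinases and regulators. It was in 0 of 8 other cytosolic synthetase and cofactor genes and 0 of 15 mitochondrial synthetases. Of 14 chaperones and sensors of the endoplasmic reticulum, 0 had it. The cyclic AMP response element TGACGTCA, searched the same way, was in 1 of the 32 genes (3.12%) and in 2.03% of all genes with a window. A match is a run of letters and not a measured binding site.

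RNA-seq levels are FPKM, fragment counts scaled to transcript length and sequencing depth, so that genes of different length can be set side by side. FPKM summed to 447657 to 585678 per library. The confidence bounds behind the FPKM correspond to a median of 2185 effective fragments for a member, and to at least 34 wherever a member reached 1 FPKM. RIP tables held 7378729 to 13033886 counts in the Flag libraries of both treatments, of which the ribosomal RNA precursor Rn45s took 66.9% to 73.2%. The IgG libraries held 3472020 and 3703236 counts, with 47.9% and 39.3% in Rn45s. The 10 stem cell markers summed to between 2321 and 4297 FPKM in the 6 stem cell libraries and to 23.4 and 17.7 in the MEF libraries. The 12 fibroblast markers summed to 6409 and 5429 FPKM in MEF and to at most 36.5 in any stem cell library. Dppa5a itself stood at 101 and 358 FPKM in Dppa5a_KD, against 5126 and 5417 in KD_control (log2 fold change of -4.78 with SE 0.63, limma adjusted p = 0.00878).

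Across the 4 RNA-seq groups the 40 genes took 1.64% and 1.42% of the summed FPKM in the Dppa5a_KD libraries and 1.36% and 1.36% in the KD_control libraries. They took 0.458% and 0.447% in mESC and 0.604% and 0.585% in MEF. The mean was highest in Dppa5a_KD for 24 of the genes, in KD_control for 13, in MEF for 3 and in mESC for 0. Over the 13688 genes that reached 1 FPKM in a group, the corresponding shares were 16.5%, 30.9%, 30.2% and 22.5%. The mean was lowest in mESC for 24 members and in MEF for 16, against 24.4% and 44.9% of those genes. Asns, asparagine synthetase, had 579 and 583 FPKM in Dppa5a_KD, 671 and 689 in KD_control, 132 and 131 in mESC and 117 and 133 in MEF. At the other end, Slc7a11, the hormone gene Fgf21 and the lipoprotein receptor Vldlr stayed under 10 FPKM in all 8 libraries.

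**Figure D1:**
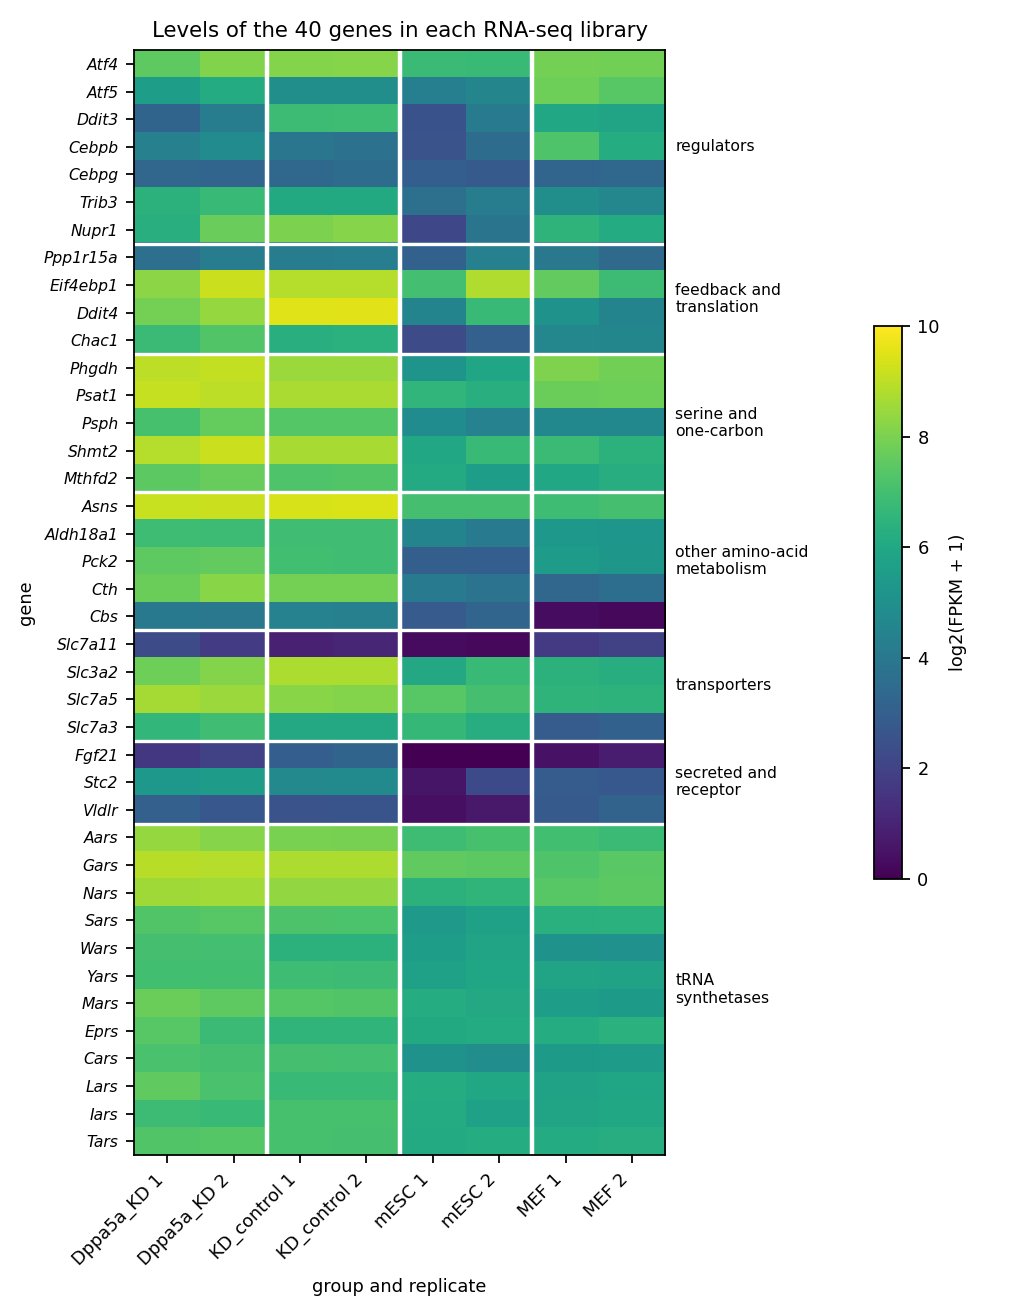
Level of each of the 40 genes, as log2(FPKM + 1) in color, in each of the 8 RNA-seq libraries (columns, 2 per group), with genes in rows grouped by role. Most rows are brighter in the Dppa5a_KD and KD_control columns than in the mESC and MEF columns, while the fibroblast columns are the brightest for Atf5 and Cebpb.

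The libraries of both stem cell controls were compared first, because they set the level from which the knockdown is read. KD_control and mESC carry the same labels (wild type, untreated stem cells), yet nearly the whole module was higher in KD_control. Of 39 genes tested, 32 were higher and 0 lower in KD_control, against 26.5% of all 12595 genes higher and 15% lower (41.4% called in all). The median log2 fold change was 1.63 for the members and 0.19 for all genes tested. Both KD_control libraries stood above both mESC libraries for 38 of the 40 genes and below them for 1. Of all genes 47.9% stood above in this way and 32% below, 79.9% in all. Against MEF, both KD_control libraries stood above for 35 of the 40 genes and below for 4 (54.1% and 37.4% of all genes). Fold changes are on the log2(FPKM + 1) scale, which understates the change of low genes. In bulk RNA, fewer cells of a kind and less RNA per cell cannot be told apart.

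Among the regulators, 4 of 7 were higher in KD_control. Nupr1 (mm10, chr7:126623246-126625470), a small stress-induced chromatin protein, had 263 and 288 FPKM in KD_control and 3.53 and 13.3 in mESC (log2 fold change of 5.10 with SE 0.58, limma adjusted p = 0.00926). Both KD_control libraries were far above both mESC libraries, which themselves differed. Ddit3 (chr10:127290793-127296288), which encodes the stress factor CHOP, had 115 and 116 FPKM in KD_control and 4.73 and 16.5 in mESC (log2 fold change of 3.54 with SE 0.57, limma adjusted p = 0.0153). Its last 68 bases overlap the end of the methionine synthetase Mars, and without a stated strand the reads of that stretch cannot be assigned. Atf4 (chr15:80255184-80257545) had 279 and 289 FPKM in KD_control and 112 and 108 in mESC (log2 fold change of 1.36 with SE 0.14, limma adjusted p = 0.00865). All 4 Atf4 values were close within their group and the groups did not overlap. The pseudokinase gene Trib3, which restrains ATF4, was also higher (2.11). Atf5, Cebpb and Cebpg, which encode relatives or partners of ATF4, were not called, with log2 fold changes of 0.51, 0.80 and 0.55.

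Of the 4 feedback and translation genes, 2 were higher in KD_control. Ddit4 (chr10:59949675-59951770), an inhibitor of the growth kinase mTORC1, had 729 and 747 FPKM in KD_control and 22.1 and 107 in mESC (log2 fold change of 3.89 with SE 0.77, limma adjusted p = 0.0236). Chac1 (chr2:119351242-119354327), an enzyme that degrades glutathione, had 78.2 and 82.0 FPKM in KD_control and 3.94 and 7.35 in mESC (log2 fold change of 3.66 with SE 0.29, limma adjusted p = 0.00715). For both genes the groups lay apart, and the mESC libraries of Ddit4 were the more scattered. Ppp1r15a, the phosphatase subunit that reverses eIF2 phosphorylation, and Eif4ebp1, an inhibitor of cap-dependent translation, were not called. The level of Eif4ebp1 was 470.2 and 469 FPKM in KD_control and 127 and 450.1 in mESC, so the mESC libraries alone spanned most of the range.

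All 10 enzymes of amino-acid and one-carbon metabolism were higher in KD_control. Pck2 (chr14:55540266-55550017), the mitochondrial phosphoenolpyruvate carboxykinase, had 123 and 119.8 FPKM in KD_control and 7.15 and 7.01 in mESC (log2 fold change of 3.92 with SE 0.13, limma adjusted p = 0.00715). Cth (chr3:157894248-157925063), which makes cysteine from cystathionine, had 237 and 240.2 FPKM in KD_control and 16.7 and 12.9 in mESC (log2 fold change of 3.93 with SE 0.18, limma adjusted p = 0.00715). Both genes showed tight replicates on each side of a wide gap. Phgdh (chr3:98313171-98339969), the first enzyme of serine synthesis, had 364 and 361 FPKM in KD_control and 35.3 and 57.5 in mESC (log2 fold change of 2.98 with SE 0.27, limma adjusted p = 0.00753). Psph (chr5:129765558-129787253), the last enzyme of that route, had 162 and 162 FPKM in KD_control and 27.8 and 20.6 in mESC (log2 fold change of 2.70 with SE 0.19, limma adjusted p = 0.00715). The whole serine route thus stood apart between the groups, with Psat1 at a log2 fold change of 2.28. The mitochondrial folate enzymes Shmt2 and Mthfd2 were at 2.34 and 1.43. Aldh18a1, which starts proline synthesis, was at 2.63, Asns at 2.36 and Cbs, which makes cystathionine, at 1.33.

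Of 3 transporters tested, 2 were higher in KD_control. Slc3a2, the heavy chain shared by several amino-acid transporters, was at a log2 fold change of 2.39, and its partner Slc7a5, the carrier of large neutral amino acids, at 0.96. Slc7a3, a carrier of arginine and lysine, was not called (-0.42) and was the only member with both KD_control libraries below both mESC libraries. Slc7a11 had a mean under 1 FPKM in both groups and was not tested. Of the secreted and receptor genes, Stc2 (chr11:31359441-31370061), a secreted glycoprotein, had 25.2 and 26.4 FPKM in KD_control and 0.470 and 3.80 in mESC (log2 fold change of 3.34 with SE 0.60, limma adjusted p = 0.0195). Fgf21 (chr7:45613890-45615490) had 6.89 and 8.24 FPKM in KD_control and was listed at 0 in both mESC libraries (limma adjusted p = 0.00715), so no fold is given. Vldlr, a lipoprotein receptor, was at 2.02. Fgf21 and Vldlr passed the filter of 1 FPKM through KD_control alone, so they had to differ. 

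The 12 cytosolic tRNA synthetases, which load amino acids onto tRNA, showed smaller differences. In KD_control 11 were higher, with Cars (2.02), Nars (1.88) and Sars (1.63) at the top and Wars (0.71) and Lars (0.68) at the bottom of those called. Between them lay Gars (1.24), Mars (1.19), Iars (1.14), Yars (1.05), Aars (0.98) and Tars (0.92). Eprs missed the threshold (0.42, limma adjusted p = 0.0677). Of 11 other cytosolic synthetase and cofactor genes, 3 were higher and 0 lower, with Vars at 0.69, Rars at 0.88 and Qars at 0.89. Of 17 mitochondrial synthetases, 2 were higher and 2 lower. All 12 tested members with the CARE motif in their window were higher (median log2 fold change 2.06), and so were 14 of 19 with a window but no motif (median 1.63). Those 12 include Fgf21 and Vldlr, which passed the filter through KD_control alone and so had to differ. The Fgf21 value behind the first median depends on the pseudocount. The difference between those medians was not tested.

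Genes upstream of ATF4 had other values. Of 6 eIF2 kinases and their regulators, 0 were higher and 3 lower in KD_control, with Impact, an inhibitor of the kinase GCN2, at -1.70, the kinase PKR (Eif2ak2) at -1.12 and the kinase HRI (Eif2ak1) at -0.59. Among 11 genes for eIF2, its exchange factor eIF2B and related factors, 0 were higher and 3 lower. Of 8 further transporters 4 were higher and 1 lower, with the neutral amino-acid carrier Slc1a4 at 2.98, the neutral amino-acid carrier Slc43a1 at 2.59 and the glycine carrier Slc6a9 at 2.07. Of 11 further enzymes 5 were higher and 1 lower, with Pycr1, which ends proline synthesis, at 2.95 and the mitochondrial folate enzyme Aldh1l2 at 2.55. Of 9 further stress targets 4 were higher and 0 lower, with the repressor Jdp2 at 2.60, the secreted factor Gdf15 at 2.13 and the transcription factor Atf3 at 2.08. Among 17 chaperones and sensors of the endoplasmic reticulum, 3 were higher and 1 lower.

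KD_control and mESC differed outside this module as well. The Y-linked eIF2 subunit gene Eif2s3y, not among the eIF2 genes counted above, was listed at 0 in both KD_control and both Dppa5a_KD libraries. In mESC it had 43.2 and 41.2 FPKM. Its X-linked counterpart Eif2s3x, which was among those counted, was lower in KD_control than in mESC (-0.66, limma adjusted p = 0.049). Of the 10 stem cell markers, 3 were called higher and 1 lower in KD_control than in mESC. Zfp42 had 34.3 and 36.6 FPKM in KD_control, 41.5 and 50.1 in Dppa5a_KD and 406 and 502 in mESC. Tdgf1 had 1273 and 1267 FPKM in KD_control and 312 and 418 in mESC. The 12 fibroblast markers, which feeder cells could carry, summed to 36.5 and 35.8 FPKM in KD_control, 15.7 and 17.1 in mESC and 6409 and 5429 in MEF. Of the 5 tested in KD_control against mESC, Mmp2 (1.82), Pdgfrb (2.24) and Twist1 were higher, Pdgfra was lower (-1.54) and Thy1 was not called (1.49). The collagen Col1a1 stayed at or under 0.775 FPKM in every stem cell library, against 2894 and 2226 in MEF. The part of feeder cells in the member values was not tested. Differences in cell line or in library making, if any, cannot be told apart from the group. The member count was 21 without KD_control replicate 1 and 20 without KD_control replicate 2, fits that take their spread from the more scattered mESC libraries.

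**Figure D2:**
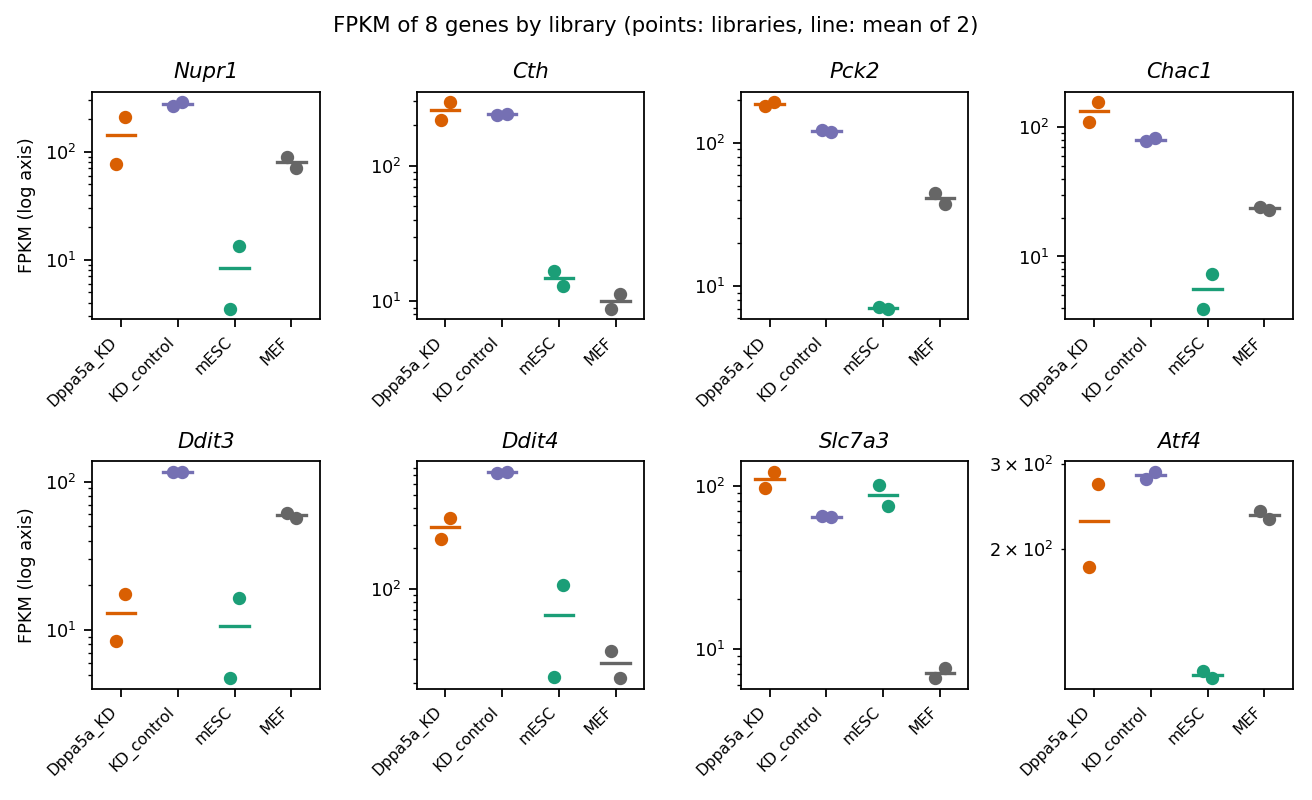
FPKM (log axis) of 8 genes in each RNA-seq library, with points for libraries and a line at the mean of each group of 2. Nupr1, Cth, Pck2, Chac1 and Ddit4 are higher in Dppa5a_KD and KD_control than in mESC, Ddit3 is high in KD_control and MEF, and Slc7a3 is low in MEF.

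The knockdown was compared with KD_control, which is also the group set against mESC above, so these comparisons share their KD_control libraries. Members differed from KD_control in both directions, and the share of them called was no higher than that of all genes. Of 40 genes, 9 were higher and 5 lower in Dppa5a_KD (35% called in all), against 13.6% of all 12345 genes higher and 23.8% lower (37.4% called in all). The median log2 fold change was 0.23 for the members and -0.11 for all genes. With scaling by median ratios, which moved the median of all genes to 0.05, the split was 14 higher and 4 lower. Both Dppa5a_KD libraries stood above both KD_control libraries for 24 members and below them for 11, against 30.8% and 44.8% of all genes (75.6% not overlapping in all). Set against mESC, they stood above for 36 members and below for 0, as did 35.4% and 28.3% of all genes.

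The largest change was in a regulator. Ddit3 had 8.42 and 17.5 FPKM in Dppa5a_KD and 115 and 116 in KD_control (log2 fold change of -3.15 with SE 0.33, limma adjusted p = 0.00637). Both knockdown libraries lay near the mESC values of 4.73 and 16.5 FPKM, far below both KD_control libraries. Another 3 regulators were higher. Atf5 (chr7:44812256-44816658) had 47.8 and 70.0 FPKM in Dppa5a_KD and 29.7 and 29.8 in KD_control (log2 fold change of 0.94 with SE 0.20, limma adjusted p = 0.0241). Its annotated span overlaps 239 bases of the nucleoporin gene Nup62. Cebpb (chr2:167688915-167690432) had 19.7 and 27.4 FPKM in Dppa5a_KD and 14.3 and 12.4 in KD_control (log2 fold change of 0.76 with SE 0.19, limma adjusted p = 0.0339). Trib3 (chr2:152337425-152344060) had 85.4 and 109 FPKM in Dppa5a_KD and 65.8 and 66.4 in KD_control (log2 fold change of 0.54 with SE 0.15, limma adjusted p = 0.0492). For these 3 genes the groups did not overlap, and Dppa5a_KD replicate 2 was the higher of its pair each time. Atf4 was not called, with 184 and 272 FPKM in Dppa5a_KD and 279 and 289 in KD_control (log2 fold change of -0.34 with SE 0.23, limma adjusted p = 0.287). Without Dppa5a_KD replicate 2, the library closest to the KD_control values, the log2 fold change of Atf4 was -0.63. That fit has a lone knockdown library, so its spread comes from the KD_control libraries alone. Nupr1, with 77.1 and 209 FPKM in Dppa5a_KD and 263 and 288 in KD_control, was not called (-1.11, limma adjusted p = 0.131).

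Among the feedback genes, Ddit4 was lower, with 237 and 339.5 FPKM in Dppa5a_KD and 729 and 747 in KD_control (log2 fold change of -1.38 with SE 0.24, limma adjusted p = 0.0148). Chac1 was higher, with 110.4 and 157 FPKM in Dppa5a_KD and 78.2 and 82.0 in KD_control (log2 fold change of 0.71 with SE 0.20, limma adjusted p = 0.0467). Both genes are targets of the stress response, and they moved in opposite directions with no overlap between groups. None of the 5 serine and one-carbon genes was called, with Phgdh closest (0.52, limma adjusted p = 0.0646). Pck2 was higher, with 180.1 and 192 FPKM in Dppa5a_KD and 123 and 119.8 in KD_control (log2 fold change of 0.61 with SE 0.12, limma adjusted p = 0.0212). Cbs (chr17:31612623-31637205) was lower, with 15.6 and 15.0 FPKM in Dppa5a_KD and 20.6 and 19.6 in KD_control (log2 fold change of -0.37 with SE 0.10, limma adjusted p = 0.0402). Asns, Aldh18a1 and Cth were not called.

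Transporters differed among themselves. Slc7a11 (chr3:50364936-50443613) had 3.92 and 2.45 FPKM in Dppa5a_KD and 0.895 and 1.10 in KD_control (log2 fold change of 1.05 with SE 0.20, limma adjusted p = 0.0187), and it passed the filter through Dppa5a_KD alone. Slc7a3 (chrX:101079210-101085405) had 96.3 and 122 FPKM in Dppa5a_KD and 65.1 and 63.9 in KD_control (log2 fold change of 0.74 with SE 0.15, limma adjusted p = 0.0219). Slc3a2 (chr19:8706882-8723369), the heavy chain that Slc7a11 and Slc7a5 require, was lower, with 220.5 and 285 FPKM in Dppa5a_KD and 432 and 439.5 in KD_control (log2 fold change of -0.79 with SE 0.19, limma adjusted p = 0.0326). The ratio of mean FPKM of Slc3a2 to that of Slc7a5 was 0.664 in Dppa5a_KD and 1.5 in KD_control, with 0.567 in mESC and 0.888 in MEF. Slc7a5 itself was not called (0.39, limma adjusted p = 0.115).

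The secreted genes also split. Fgf21 was lower, with 2.07 and 2.88 FPKM in Dppa5a_KD and 6.89 and 8.24 in KD_control (log2 fold change of -1.31 with SE 0.17, limma adjusted p = 0.00826). Stc2 was higher, with 38.8 and 44.1 FPKM in Dppa5a_KD and 25.2 and 26.4 in KD_control (log2 fold change of 0.66 with SE 0.11, limma adjusted p = 0.0148). Of the 12 synthetases only Wars (chr12:108860030-108894174), the tryptophan synthetase, was called, with 129.9 and 127 FPKM in Dppa5a_KD and 84.5 and 85.7 in KD_control (log2 fold change of 0.59 with SE 0.11, limma adjusted p = 0.0177). The other 11 had log2 fold changes between -0.29 (Iars) and 0.60 (Lars). Of members with the CARE motif 4 were higher and 1 lower of 13, and of those with a window but no motif 3 were higher and 4 lower of 19. The 4 include Slc7a11, which passed the filter through Dppa5a_KD alone.

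**Figure D3:**
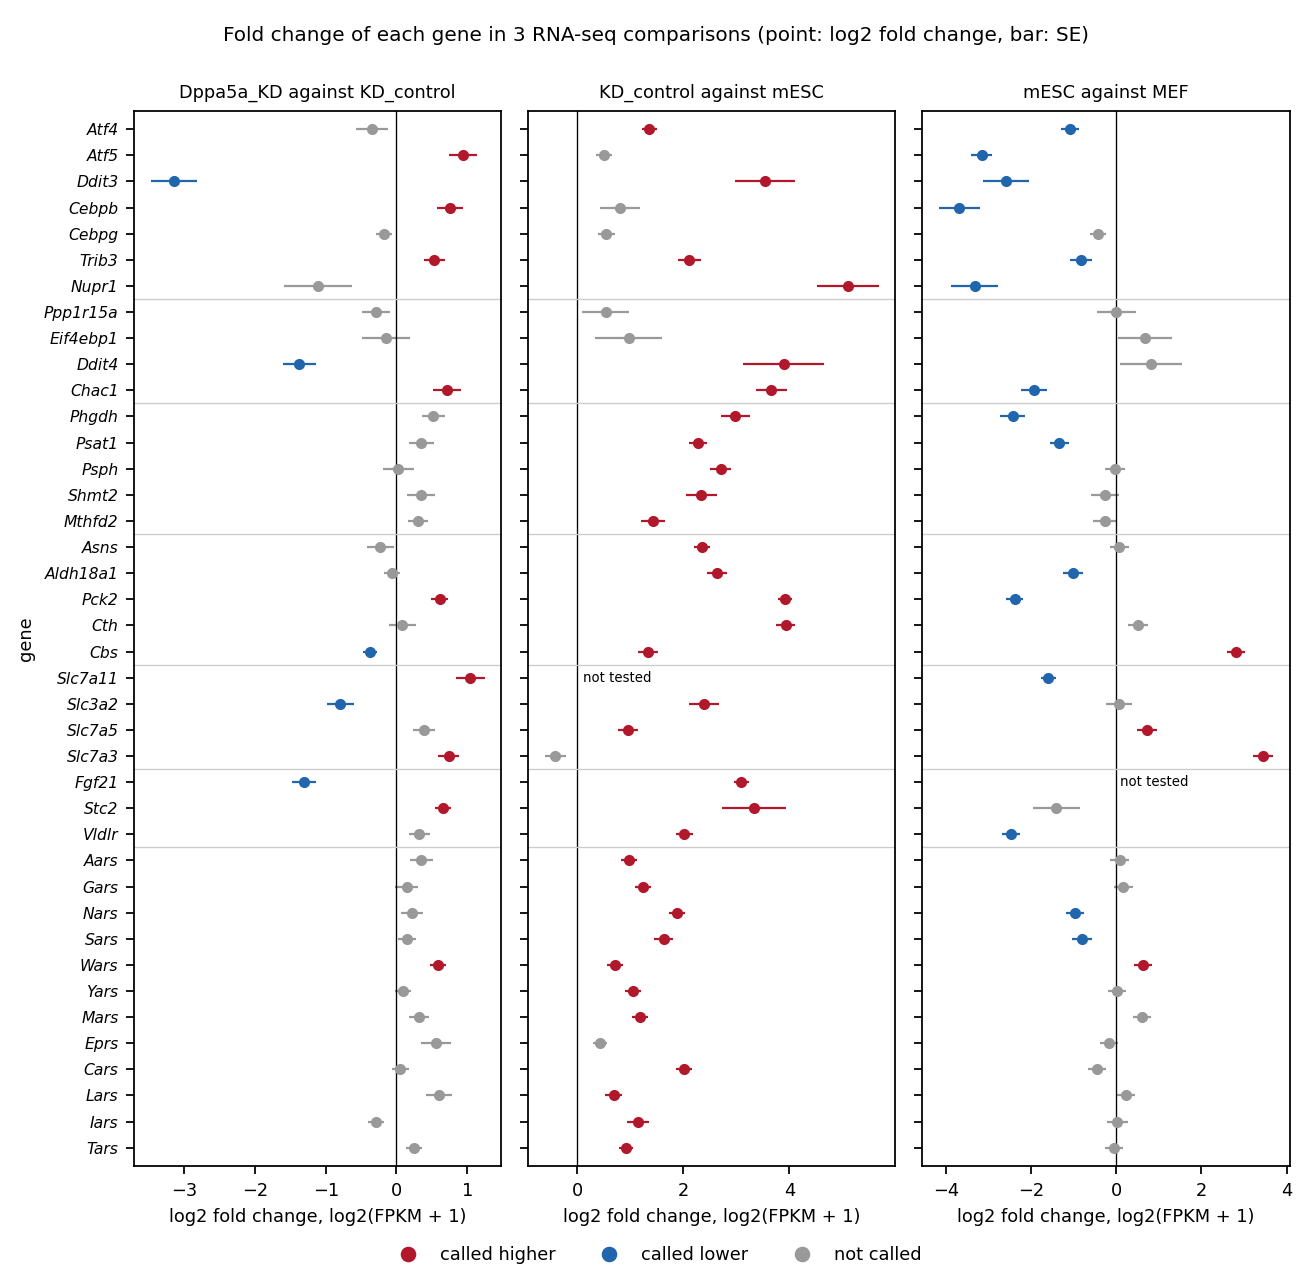
Log2 fold change (log2(FPKM + 1) scale, x axes of different range) of each of the 40 genes in 3 comparisons, with bars for the SE and colors for calls by limma. Nearly all points lie right of 0 for KD_control against mESC, while Ddit3 is at -3.15 for Dppa5a_KD against KD_control. The value of Fgf21 in the middle panel depends on the pseudocount, since mESC was listed at 0.

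In the knockdown the amino-acid carriers outside the 40 genes also moved both ways. Of 8, 4 were higher and 1 lower, with the glutamine carriers Slc38a2 at 1.30 and Slc38a1 at 1.22 and the neutral amino-acid carrier Slc43a1 at -1.61. Of 11 further enzymes 3 were higher and 2 lower, with glutamine synthetase (Glul) at 0.96, the folate enzyme Mthfd1l at 0.70 and ornithine aminotransferase (Oat) at -0.73. Of 9 further stress targets 3 were higher and 0 lower, with the tRNA exporter Xpot at 0.90, the mTORC1 inhibitor Sesn2 at 0.83 and Jdp2 at 0.60. Among 11 genes of eIF2, eIF2B and related factors 5 were higher and 0 lower, with Eif5 at 0.88 and Eif2b4 at 0.79. Of 6 kinases and regulators 1 was higher, Eif2ak1 at 0.47, and 1 lower, the endoplasmic reticulum kinase PERK (Eif2ak3) at -0.60. Of 11 other cytosolic synthetase and cofactor genes 2 were higher and 0 lower, and of 17 mitochondrial synthetases 4 were higher and 2 lower. Of 17 chaperones and sensors of the endoplasmic reticulum 1 was higher, the transcription factor Xbp1 at 0.95, and 1 lower, the cofactor Sdf2l1 at -0.56.

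The fibroblast markers summed to 13.6 and 13.9 FPKM in Dppa5a_KD, against 36.5 and 35.8 in KD_control. The knockdown libraries varied more than the KD_control libraries, and the count depended on which were kept. Without Dppa5a_KD replicate 1 or 2 it was 33 or 35, without KD_control replicate 1 or 2 it was 6 or 4, and with all 8 RNA-seq libraries in the fit it was 7. Ddit3, Fgf21 and Atf5 remained called in each of 11 alternatives.

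**Figure D4:**
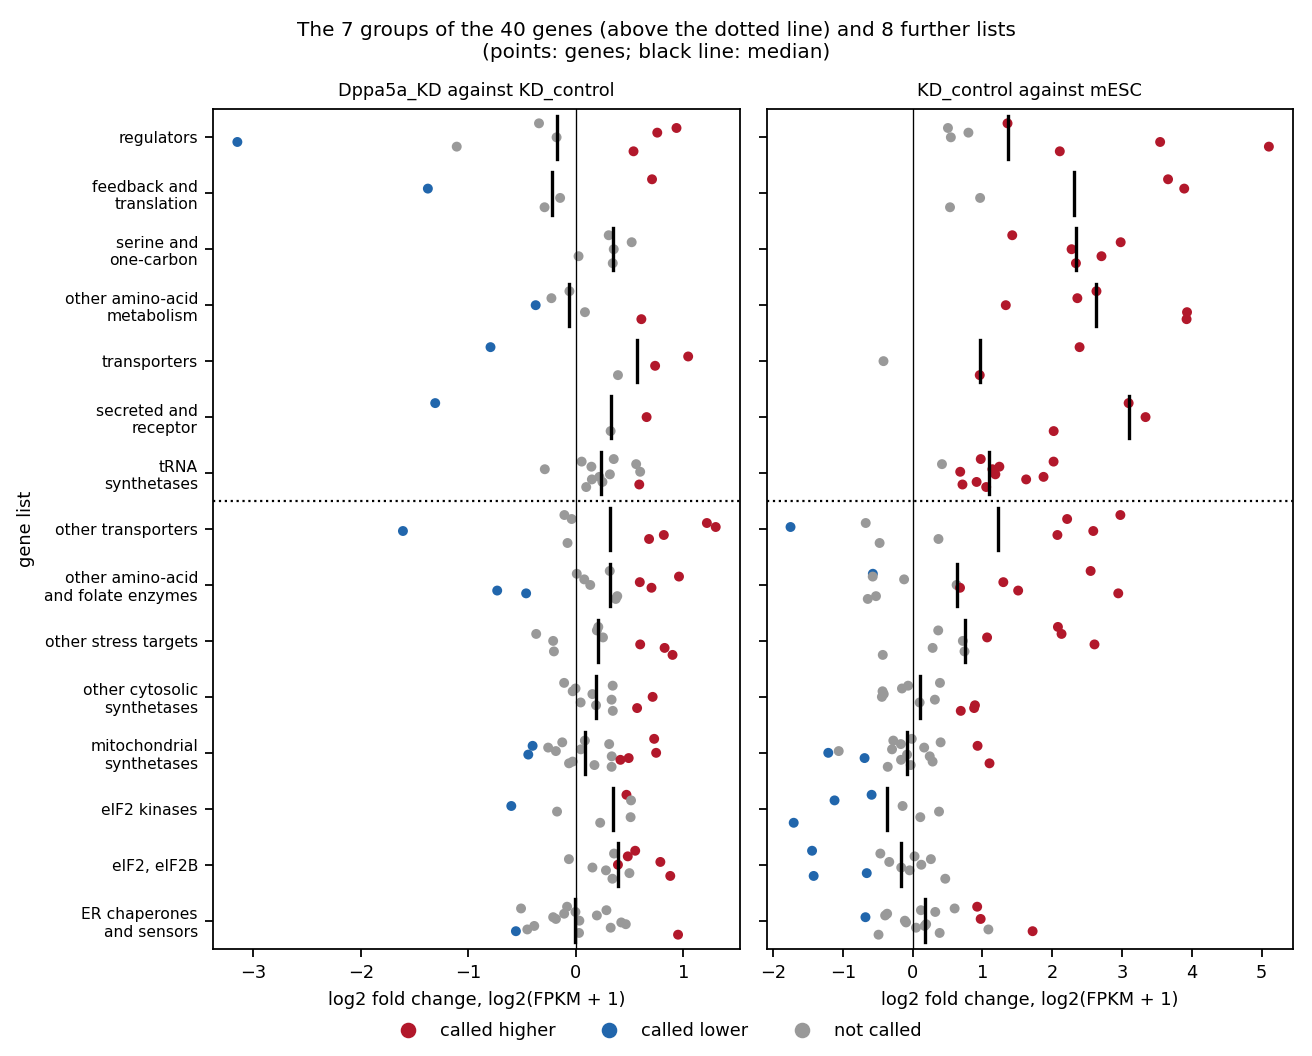
Log2 fold change (log2(FPKM + 1) scale) of each gene in the 7 role groups of the 40 genes and in 8 further lists, for 2 comparisons, with a black line at the median of each list. Each role group has its median right of 0 for KD_control against mESC. The eIF2 kinases (-0.36), the eIF2 and eIF2B genes (-0.16) and the mitochondrial synthetases (-0.08) have theirs left of 0. For Dppa5a_KD against KD_control the medians of all lists lie between -0.22 and 0.57.

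Stem cells were set against fibroblasts next, with the mESC libraries that were also compared with KD_control. In mESC the regulators were lower and the transporters mixed. Of 39 genes tested, 4 were higher and 15 lower in mESC, against 30.6% of all 12875 genes higher and 26.1% lower (56.7% called in all). The median log2 fold change was -0.26 for the members and 0.15 for all genes. The libraries of both groups did not overlap for 27 of 39 members, 8 of them above and 19 below in mESC, against 79.8% of all genes. Of 7 regulators 6 were lower, and Cebpg was not called (-0.43).

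Cebpb had 4.83 and 10.6 FPKM in mESC and 150.0 and 72.5 in MEF (log2 fold change of -3.68 with SE 0.48, limma adjusted p = 0.00215). Nupr1 had 3.53 and 13.3 FPKM in mESC and 89.6 and 70.2 in MEF (log2 fold change of -3.32 with SE 0.55, limma adjusted p = 0.00483). Atf5 had 18.9 and 22.5 FPKM in mESC and 223 and 166 in MEF (log2 fold change of -3.16 with SE 0.25, limma adjusted p = 0.000408). These 3 regulators were separated by wide gaps, although the MEF libraries of Cebpb differed. Ddit3 had 4.73 and 16.5 FPKM in mESC and 61.7 and 56.7 in MEF (log2 fold change of -2.59 with SE 0.53, limma adjusted p = 0.00992). Atf4 had 112 and 108 FPKM in mESC and 239.7 and 231 in MEF (log2 fold change of -1.09 with SE 0.21, limma adjusted p = 0.00836). Both groups of Atf4 were tight, and Trib3 was lower by a smaller margin (-0.82).

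Of the feedback genes, Chac1 was lower, with 3.94 and 7.35 FPKM in mESC and 24.1 and 23.0 in MEF (log2 fold change of -1.93 with SE 0.30, limma adjusted p = 0.00376). Phgdh had 35.3 and 57.5 FPKM in mESC and 264 and 232 in MEF (log2 fold change of -2.43 with SE 0.30, limma adjusted p = 0.0018). Psat1 (chr19:15905123-15925059), the transaminase of serine synthesis, had 95.5 and 77.5 FPKM in mESC and 214 and 223 in MEF (log2 fold change of -1.33 with SE 0.23, limma adjusted p = 0.00545). The last serine enzyme, Psph, and the folate enzymes Shmt2 and Mthfd2 had overlapping groups and were not called. Pck2 had 7.15 and 7.01 FPKM in mESC and 44.7 and 37.7 in MEF (log2 fold change of -2.38 with SE 0.20, limma adjusted p = 0.000538). Aldh18a1 was lower in mESC as well (limma adjusted p = 0.0151). In contrast Cbs had 6.26 and 8.65 FPKM in mESC and 0.247 and 0.150 in MEF (log2 fold change of 2.80 with SE 0.21, limma adjusted p = 0.00035), and it passed the filter through mESC alone.

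With the pseudocount of 1, Slc7a3 had the highest log2 fold change, but with a pseudocount of 0.1 Cbs exceeded it (4.66 against 3.60). Slc7a3 stood at 100.2 and 74.5 FPKM in mESC and 6.57 and 7.57 in MEF (log2 fold change of 3.44 with SE 0.24, limma adjusted p = 0.000274). Slc7a5 (chr8:121881146-121907686) had 168 and 131 FPKM in mESC and 90.2 and 87.6 in MEF (log2 fold change of 0.73 with SE 0.23, limma adjusted p = 0.043). Slc7a11 had 0.239 and 0.146 FPKM in mESC and 2.28 and 2.92 in MEF (log2 fold change of -1.59 with SE 0.17, limma adjusted p = 0.00121). The cationic and large neutral carriers were thus higher in mESC than in MEF and the cystine carrier was lower, while Slc3a2 was not called. Vldlr (chr19:27217020-27254231) had 0.318 and 0.617 FPKM in mESC and 6.13 and 8.16 in MEF (log2 fold change of -2.47 with SE 0.22, limma adjusted p = 0.000604). Slc7a11 and Vldlr passed the filter through MEF alone, and Fgf21 was under 1 FPKM in both groups and not tested. Of the synthetases, Wars was higher, with 47.4 and 55.8 FPKM in mESC and 33.5 and 32.1 in MEF (log2 fold change of 0.63 with SE 0.21, limma adjusted p = 0.0476), Nars (-0.96) and Sars (-0.80) were lower, and 9 were not called. Of members with the CARE motif 0 were higher and 6 lower of 12, and of those with a window but no motif 1 was higher and 8 lower of 19. The 6 include Slc7a11 and Vldlr and the 1 is Cbs, each of which passed the filter through 1 group alone.

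The lists around the module did not all share its direction. Of 11 other cytosolic synthetase and cofactor genes 4 were higher and 0 lower in mESC, of 17 mitochondrial synthetases 10 were higher and 1 lower, and of 11 eIF2 and eIF2B genes 6 were higher and 0 lower. Of 6 kinases and regulators 2 were higher and 0 lower. Of 11 further enzymes 5 were higher and 3 lower, with the cytosolic folate enzyme Mthfd1 at 2.74 and its mitochondrial relative Aldh1l2 at -3.77. Of 8 further transporters 1 was higher and 3 lower, and of 9 further stress targets 2 were higher and 2 lower. Of 17 chaperones and sensors of the endoplasmic reticulum 0 were higher and 4 lower, with Sel1l, a subunit of its degradation machinery, at -1.49 and the co-chaperone Dnajc3 at -1.37. Macrophage markers, 6 genes, summed to 4.30 and 5.67 FPKM in mESC and 36.2 and 39.4 in MEF, and their part in these values was not tested. Lyz2, with 28.15 and 32.61 FPKM, made up most of the MEF sum. Cd68 made up nearly all of the mESC sum, with 4.30 and 5.63 FPKM in mESC and 4.09 and 3.56 in MEF, and was not called. Of the 3 markers tested, 0 were higher and 2 lower in mESC. The member count was 7 without MEF replicate 1 and 8 without MEF replicate 2.

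RIP asked which RNAs come down with Flag-tagged Dppa5a. No member was called higher in a Flag library group than in IgG_RIP. In Flag_RIP against IgG_RIP, 0 of 39 genes were higher and 5 lower, against 1.16% of all 10473 genes higher and 1.16% lower (2.32% called in all). At an unadjusted p under 0.05 there were 12 members. DESeq2 called 5, all lower, of which 4 were among those called by edgeR. The median log2 fold change of counts was -0.69 for the members and 0.02 for all genes. The members together took 0.0945% and 0.0668% of the counts in Flag_RIP and 0.198% and 0.229% in IgG_RIP. Those totals differ in their Rn45s share, and outside Rn45s, Rmrp, Rpph1 and Lars2 the members took 0.825% and 0.569% in Flag_RIP and 0.977% and 1.01% in IgG_RIP. Both Flag libraries lay below both IgG libraries for 25 members and above for 2, and 46.6% of all genes did not overlap either way. Values below are CPM, counts scaled to the effective library size.

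Nupr1 had 2.33 and 3.75 CPM in Flag_RIP and 17.1 and 24.0 in IgG_RIP (log2 fold change of -2.76 with SE 0.48, edgeR adjusted p = 0.00296). Cth had 1.65 and 1.5 CPM in Flag_RIP and 9.96 and 17.8 in IgG_RIP (log2 fold change of -3.12 with SE 0.58, edgeR adjusted p = 0.00591). Pck2 had 6.71 and 4.75 CPM in Flag_RIP and 20.5 and 30.0 in IgG_RIP (log2 fold change of -2.13 with SE 0.43, edgeR adjusted p = 0.0106). All 3 were higher in KD_control than in mESC, as were 32 of the 39 members tested there. In each of the 3, both Flag libraries were below both IgG libraries. Chac1 had 8.85 and 12.4 CPM in Flag_RIP and 36.0 and 31.7 in IgG_RIP (log2 fold change of -1.68 with SE 0.36, edgeR adjusted p = 0.0167). Slc7a11 rested on 13 and 0 counts in Flag_RIP and 76 and 52 in IgG_RIP (log2 fold change of -4.12 with SE 0.92, edgeR adjusted p = 0.0204). Atf4 was not called, with 70.9 and 88.4 CPM in Flag_RIP and 51.0 and 66.9 in IgG_RIP (log2 fold change of 0.43 with SE 0.28, edgeR adjusted p = 0.509). None of the 12 synthetases was called, with values between -1.02 (Eprs) and 0.49 (Aars). Fgf21 had at most 1 count in any RIP library and was not tested.

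In HU_Flag_RIP against IgG_RIP, which shares the IgG libraries, 0 of 39 were higher and 6 lower, against 1.44% and 1.42% of all genes (2.86% called in all). The median was -0.77 for the members and 0.04 for all genes. Both HU_Flag libraries lay below both IgG libraries for 27 members and above for 3, and 47.4% of all genes did not overlap either way. Chac1 had 5.05 and 4.76 CPM in HU_Flag_RIP and 36.0 and 31.7 in IgG_RIP (log2 fold change of -2.78 with SE 0.39, edgeR adjusted p = 0.000727). Pck2 had 3.06 and 5.42 CPM in HU_Flag_RIP and 20.5 and 30.0 in IgG_RIP (log2 fold change of -2.58 with SE 0.45, edgeR adjusted p = 0.00288). Cth had 1.46 and 2.63 CPM in HU_Flag_RIP and 9.96 and 17.8 in IgG_RIP (log2 fold change of -2.77 with SE 0.58, edgeR adjusted p = 0.0116). The IgG libraries were again above both Flag libraries for all 3. Nupr1 had 3.45 and 5.91 CPM in HU_Flag_RIP and 17.1 and 24.0 in IgG_RIP (log2 fold change of -2.14 with SE 0.47, edgeR adjusted p = 0.0158). Nars had 44.9 and 26.4 CPM in HU_Flag_RIP and 78.2 and 109 in IgG_RIP (log2 fold change of -1.39 with SE 0.35, edgeR adjusted p = 0.0354). Shmt2 had 29.1 and 18.1 CPM in HU_Flag_RIP and 61.7 and 55.4 in IgG_RIP (log2 fold change of -1.31 with SE 0.33, edgeR adjusted p = 0.0357). For Nupr1, Nars and Shmt2 the groups did not overlap either, and Atf4 was not called (-0.10). 

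The 6 macrophage markers summed to 80 and 223 counts in HU_Flag_RIP, 46 and 44 in Flag_RIP and 559 and 273 in IgG_RIP, although IgG libraries were the smallest, and 1 or 2 of the 6 were at 0 in the IgG libraries. Most of these counts were of 1 gene, Lyz2, with 73 and 199 in HU_Flag_RIP, 34 and 33 in Flag_RIP and 498 and 237 in IgG_RIP. Each other marker had at most 35 counts in a library, the value of Csf1r in IgG_RIP replicate 1. The part of the macrophage markers in the lower member values was not tested. The count for Flag_RIP was 2 without IgG_RIP replicate 1 and 0 without IgG_RIP replicate 2, and that for HU_Flag_RIP was 2 and 1. Outside the 40 genes, Sesn2 was lower in Flag_RIP (-1.50) and the carrier Slc7a6 higher (2.07), and the enzyme Gpt2 was lower in HU_Flag_RIP (-2.24). The chaperone Calr and the mitochondrial leucine synthetase Lars2 were higher in both. No other gene of the 8 further lists was called in these 2 comparisons. Lars2 had 961126 and 655769 counts in Flag_RIP, 656984 and 453672 in HU_Flag_RIP and 111827 and 75842 in IgG_RIP. Each other mitochondrial synthetase had at most 100 counts in a library, the value of Ears2 in Flag_RIP replicate 1. Lars2 is also among the RNAs, with Rn45s, outside which the member shares were given above. Whether its counts come from the synthetase mRNA was not tested.

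HU treatment was read directly between the 2 sets of Flag libraries, which were used above as well. In HU_Flag_RIP against Flag_RIP edgeR called 0 of 39 members, against 0.611% of all genes, DESeq2 called 0, and 2 members had an unadjusted p under 0.05. The smallest p was that of Ddit4, with 37.2 and 52.5 CPM in HU_Flag_RIP and 11.1 and 27.6 in Flag_RIP (log2 fold change of 1.22 with SE 0.38, edgeR adjusted p = 0.44). Without Flag_RIP replicate 2, the higher of the untreated libraries, the log2 fold change of Ddit4 was 2.00. That fit has a lone Flag_RIP library. Chac1 had 5.05 and 4.76 CPM in HU_Flag_RIP and 8.85 and 12.4 in Flag_RIP (log2 fold change of -1.11 with SE 0.38, edgeR adjusted p = 0.678). For both genes, and for Atf4, the 2 groups lay apart, while 36 of the 39 members overlapped (30.6% of all genes did not overlap). With all 6 RIP libraries and no replicate block, neither the Ddit4 nor the Chac1 difference passed the correction over all genes. Next came Atf4 at -0.53 and Phgdh at -0.63, both with an edgeR adjusted p of 1. These RIP values rest on few reads, with a median of 108.5 counts per member and library, and 5 members (Ddit3, Cbs, Slc7a11, Fgf21 and Vldlr) had under 10 counts in a library.

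**Figure D5:**
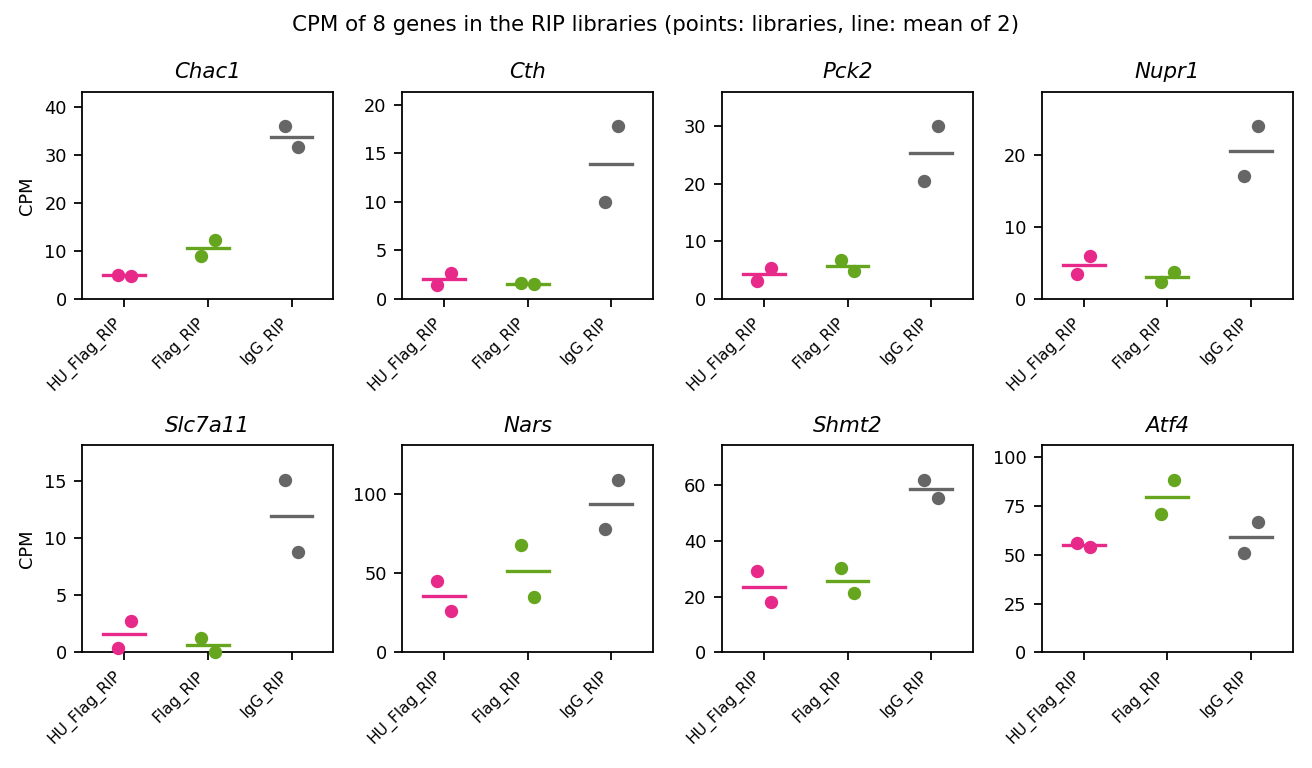
CPM (y axis from 0, own range per gene) of 8 genes in each RIP library, with points for libraries and a line at the mean of each group of 2. For the 7 genes called lower against IgG_RIP in at least 1 comparison the IgG points lie above the Flag points, whereas for Atf4 the highest points are those of Flag_RIP.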

How the data were processed

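RNA-seq was made from total RNA of the Dppa5a_KD, KD_control, mESC and MEF groups, and RIP from immunoprecipitated RNA, with Trizol and the NEBNext Ultra kit, per the labels' protocols. The authors deposited gene-level FPKM with confidence bounds for the RNA-seq libraries, per the file headers. For the RIP libraries the authors deposited raw counts per gene symbol, since all values deposited there are whole numbers. Tools listed in the submitters' processing notes, with no role stated, were HTSeq 0.6.1, Cuffdiff 2.1.1, TopHat2 2.0.8, CASAVA 2.19 and Cufflinks 2.1.1, with mm10 as the build. No source used here states whether the libraries were stranded.

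FPKM were tested with limma 3.58.1 (limma-trend) in R 4.3.3, on log2(FPKM + 1), keeping genes whose group mean reached 1 FPKM in one or both groups, with only the libraries compared in each fit. The RIP counts went into edgeR 4.0.16 and its quasi-likelihood test (TMM, filterByExpr, all 6 RIP libraries in 1 fit), with DESeq2 1.42.0 as an alternative. P-values were adjusted (Benjamini-Hochberg) over all genes tested and called under 0.05. Both fits were tested on simulated data. Left out were 1 gene marked as failed and 27 date-like symbols, which held 0.0206% to 0.0489% of the counts. Promoter windows are those of RefSeq (GRCm38.p6), searched in Python 3.11.15, and figures were drawn with matplotlib 3.10.9.

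The members and lists were chosen with earlier results of these data known. Values per library are given for the called members with the largest fold changes, at most 10 in each direction, and always for Atf4. In RIP every called member is given, or the 4 with the smallest p where none was called. From other lists at most 3 called genes with the smallest p are named. Effects of other scalings, filters, pseudocounts, sets of libraries and replicate blocks are given below. The depth of each library bounds counting error only.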

Additional observations from a re-analysis of the deposited data

How the results depend on the processing

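Member counts stayed within 1.5 times of those reported under most alternatives. With all 8 RNA-seq libraries in the fit the knockdown count was 7 in place of 14. With no filter on low counts it was 10 in place of 6 for HU_Flag_RIP against IgG_RIP. Leaving out 1 library gave 4 to 35 for Dppa5a_KD against KD_control, 20 to 39 for KD_control against mESC, 7 to 19 for mESC against MEF, 0 to 6 for Flag_RIP against IgG_RIP, 1 to 5 for HU_Flag_RIP against IgG_RIP and 0 to 1 for HU_Flag_RIP against Flag_RIP. These fits have fewer samples and a group with a lone library, which is assumed to vary like the others. Atf4 in HU_Flag_RIP against IgG_RIP changed sign in this way, at -0.27 to 0.10, and was not called at either end. Scaling by median ratios moved the median of all genes from 0.15 to 0.01 for mESC against MEF and from 0.19 to -0.02 for KD_control against mESC. Single genes were followed for the called members, for Atf4 and, in HU_Flag_RIP against Flag_RIP, for the 4 members with the smallest p. Most of these were called as reported and so could not gain a call. Over 912 values of these genes and alternatives, 782 kept direction and call, 126 lost the call, 3 gained it and 1 changed sign. The cause of these shifts was not tested.

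No label ties replicate numbers across groups. Correlations of same-numbered deviations lay between -0.55 for mESC against MEF and 0.38 for HU_Flag_RIP against Flag_RIP, with the other 4 between -0.03 and 0.06. With a replicate block the count was 9 for Flag_RIP against IgG_RIP, 14 for HU_Flag_RIP against IgG_RIP, 1 for HU_Flag_RIP against Flag_RIP (Ddit4, 1.28, edgeR adjusted p = 0.041), 15 for the knockdown, 33 for KD_control against mESC and 15 for mESC against MEF. A crossed pairing of mESC and MEF, added after seeing the data, gave 22.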
